A study of Homo sapiens with 12 samples.

Results

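Ribosomal protein genes and small nucleolar RNA (snoRNA) host genes were followed across 2 comparisons in DU145, a human prostate carcinoma cell line. Members were taken by symbol: RPL or RPS followed by a digit, RPSA, RPLP0, RPLP1 or RPLP2, without pseudogenes and without the RPS6K kinases, together with every SNHG gene and GAS5. Of the 3234 entries in both expression tables, 36 met this rule, out of 124 annotated human genes with such a symbol (53 of the large subunit, 34 of the small subunit, 7 with hyphenated names such as readthrough loci, and 30 snoRNA hosts). The table for RSL3 held 31 of them among 1810 entries: 14 large-subunit genes, 8 small-subunit genes and 9 hosts. The table for ATOH8 held 6 among 1424 entries, and 1 gene, SNHG32, was in both. Annotated genes of any kind numbered 59792 for RSL3, and annotated genes and loci 75204 for ATOH8. Whether members were listed more often than other expressed genes was not tested.

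RNA was sequenced from 12 libraries in 4 groups of 3. Wild-type DU145 cells received DMSO, the solvent control, or RSL3, a covalent inhibitor of the lipid peroxidase GPX4 that triggers ferroptosis. The labels give 24 h for the RSL3 libraries and no time for the DMSO libraries. In the other experiment, for which the labels name no treatment, DU145 cells carried an overexpression control (oeCTRL) or overexpressed ATOH8 (oeATOH8), a basic helix-loop-helix transcription factor. Both tables were taken to list only genes that the authors called as changed, since the ATOH8 table has no gene with a log2 difference from -0.97 to 1.03 and the RSL3 table is similarly short. A member missing from a table therefore has no level here. The difference of each listed gene, whichever way it went, was part of what put it there. Whether the replicates were separate cultures is not given in the sources used here, and the p-values then measure only the spread between these libraries, which may be technical.

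Reads over the listed genes numbered 2523743 to 3096832 per library in the RSL3 experiment and 1508188 to 2226518 in the ATOH8 experiment. ATOH8 itself matched the labels: oeCTRL libraries held 13, 10 and 4 reads of it, and oeATOH8 libraries held 76508, 72569 and 76043. In the RSL3 table, replicate 1 of each group stood apart from replicates 2 and 3. The chi-square per degree of freedom between replicates 2 and 3 was 1.64 for DMSO and 1.80 for RSL3 (a value near 1 is the floor set by counting), against 59.2 to 102 for pairs with replicate 1. In the ATOH8 experiment it was 6.34 to 9.23 for pairs of oeCTRL libraries. For oeATOH8 it was 12.8 between replicates 2 and 3, and 39.3 and 29.6 for pairs with replicate 1. Of 7 epithelial markers, the RSL3 table listed EPCAM and CDH1, at a summed 638 to 1152 reads in DMSO and 69 to 328 in RSL3 libraries. Of 14 markers of leukocytes, fibroblasts, endothelium and erythroid cells it listed only CD68, at 902 to 1462 and 1596 to 2963 reads, and the part of these in the results below was not tested.

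Ribosomal proteins join ribosomal RNA to form the large subunit, where peptide bonds are made, and the small subunit, where the messenger RNA is read. snoRNA host genes carry in their introns the small RNAs that guide chemical modification of ribosomal RNA, and many hosts, GAS5 among them, have spliced RNAs with little coding capacity that are turned over by nonsense-mediated decay. Transcripts of both families typically begin with an unbroken run of pyrimidines, the terminal oligopyrimidine tract, through which mTOR signalling adjusts their translation and stability.

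Pyrimidine runs near the annotated start, which the choice by symbol did not use, were more common in members than over all genes. A RefSeq promoter entry (GRCh38.p14) was found for 27 of the 36 members. The search took the longest run of C or T, on the strand of the gene, that covered the annotated start or began within 2 bases of it. Runs of at least 5 bases were found in 22 of 27 members (81.5%), in 17 of 19 ribosomal protein genes and 5 of 8 hosts, against 17.2% of all 27305 genes with an entry. The median run was 9 bases in members and 2 over all genes. A match is a description of letters and not a mapped site. A run could lie mostly before the start, as at SNHG8 (bases -5 to 0, with the start at 0). It could also begin after the start, as at RPL10A (bases 2 to 11). The counts are therefore not counts of transcripts that begin with the tract. The following windows of 30 bases, 20 before the start and 10 from it, are printed 5′ to 3′ with the run in capitals; they belong to genes whose values are given below and show how far the run varies.
RPLP0: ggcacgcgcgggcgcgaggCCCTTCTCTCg
RPSA: cgtcatttcctgccgcctgTCTTTTCCgtg
RPL27A: gagacttggcgaaggCCTTCCTTTTTCgtc
RPS24: ttggccggcgaatcgtggTTCTCTTTTCCT
RPS28: ggctctccccgaagcacgtgaCTCCTCTCC
RPL22L1: gaccgcgcggccgtagCTTCCTCTCTgctc
SNHG32: ccggcctcgccattttagTTCTTTTTgcga
SNHG19: tgagcctcgcccgcccctgTCTTTTCgggg
RPL4: acatatacagcgggagtggtaagcacttcc
GAS5: gtcgatgccatcatgaattcagatgtgttt

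These windows lie at chr12:120201102-120201131 (minus strand) for RPLP0, chr3:39406700-39406729 (plus) for RPSA, chr11:8682772-8682801 (plus) for RPL27A and chr10:78033843-78033872 (plus) for RPS24. Those of RPS28 and RPL22L1 lie at chr19:8321476-8321505 (plus) and chr3:170870186-170870215 (minus). SNHG32 lies at chr6:31834896-31834925 (plus), SNHG19 at chr16:2155349-2155378 (minus), RPL4 at chr15:66504846-66504875 (minus) and GAS5 at chr1:173869036-173869065 (minus). The run in RPS24 goes on past the window, to 16 bases in all. No run of 5 bases was found at RPL13, RPL4, SNHG11, SNHG29 and GAS5. For GAS5 the annotation and the authors' table placed the start differently: the annotated start is base 173869045 of chromosome 1, and the authors' span on the minus strand opens at base 173868882.

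**Figure D1:**
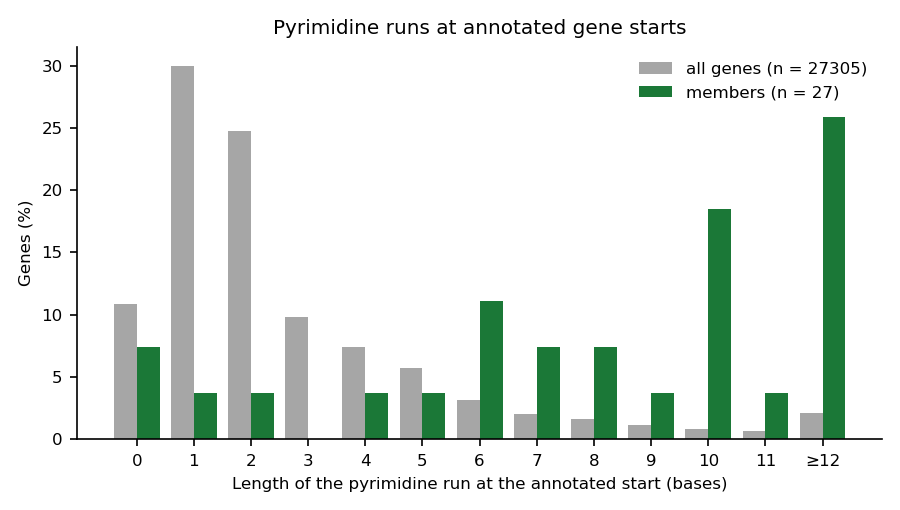
Length in bases of the C or T run at the annotated start (horizontal axis) against the share of genes in percent (vertical axis), for 27 members with a RefSeq promoter entry (green) and all 27305 genes with an entry (grey). Members lie mostly at 5 bases or more (81.5% of them), where 17.2% of all genes lie.

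All 31 members in the RSL3 table were higher in the RSL3 libraries than in the DMSO libraries under the authors' scaling; RPL4, RPL5 and RPS13 turned to slightly lower when libraries were scaled to equal listed totals. Of these, 18 rose past the threshold of limma at a Benjamini-Hochberg adjusted p of 0.05 (6 of 14 large-subunit genes, 5 of 8 small-subunit genes and 7 of 9 hosts), where 43.1% of the 1732 tested genes were called higher and 82% were called in either direction. The members' median ratio of group means was 1.64-fold, 1.57-fold for the 22 ribosomal protein genes and 1.82-fold for the 9 hosts, against a median of 1.42-fold over all tested genes. On the log2 scale the fitted median was 0.72 for members and 0.51 for all tested genes. Only 929 of the 1732 tested genes had a fitted log2 difference above 0. A set made only of higher genes therefore tends to lie above these medians, and the contrast does not set members apart from other higher genes. The 2 groups of libraries did not overlap for 26 of 31 members, against 49.4% of tested genes that were higher and 37.6% that were lower without overlap, and the 5 that overlapped were RPL18, RPS16, RPS19, SNHG6 and SNHG8. All 31 passed a filter on low counts.

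Same-numbered DMSO and RSL3 libraries deviated together (r = 0.614, 0.466 and 0.445), and the replicate number was therefore also used as a block. DMSO replicate 2 with RSL3 replicate 3 (r = 0.467) and DMSO replicate 3 with RSL3 replicate 2 (r = 0.501) deviated together as much, so these values set replicate 1 apart and do not tell replicates 2 and 3 from each other. With the replicate number as a block all 31 members passed limma, at adjusted p = 0.00244 to 0.00758. So did 1720 of the 1732 tested genes in either direction, with 53.2% of tested genes called higher. Passing with the block therefore says nothing particular of the members. Every one of the 31 was higher in all 3 same-numbered pairs, as were 53.3% of tested genes. The members' median fold was 1.71 in pair 1, 1.59 in pair 2 and 1.61 in pair 3. Over all tested genes, higher and lower ones together, it was 1.33, 1.31 and 1.32. These calls compare genes within a list of called genes: when the adjustment took all annotated genes as tests, 0 members and 0 of all listed genes passed limma, while 21 members and 1554 of the 1732 tested genes had an unadjusted p under 0.05, and DESeq2 and edgeR over the listed genes called 31 and 19 members. Single libraries decided the unblocked count, which was 30 without DMSO replicate 1, 0 without DMSO replicate 2, 0 without DMSO replicate 3, 10 without RSL3 replicate 1, 2 without RSL3 replicate 2 and 1 without RSL3 replicate 3. The count over all tested genes, 1421 in full, moved with it, to 1445, 6, 8, 975, 330 and 310 in the same order. With replicates 2 and 3 counted as 1 sample 0 members and 3 of all tested genes passed, and with the block kept 30 members and 1568 of all tested genes passed, 854 of them higher.

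**Figure D2:**
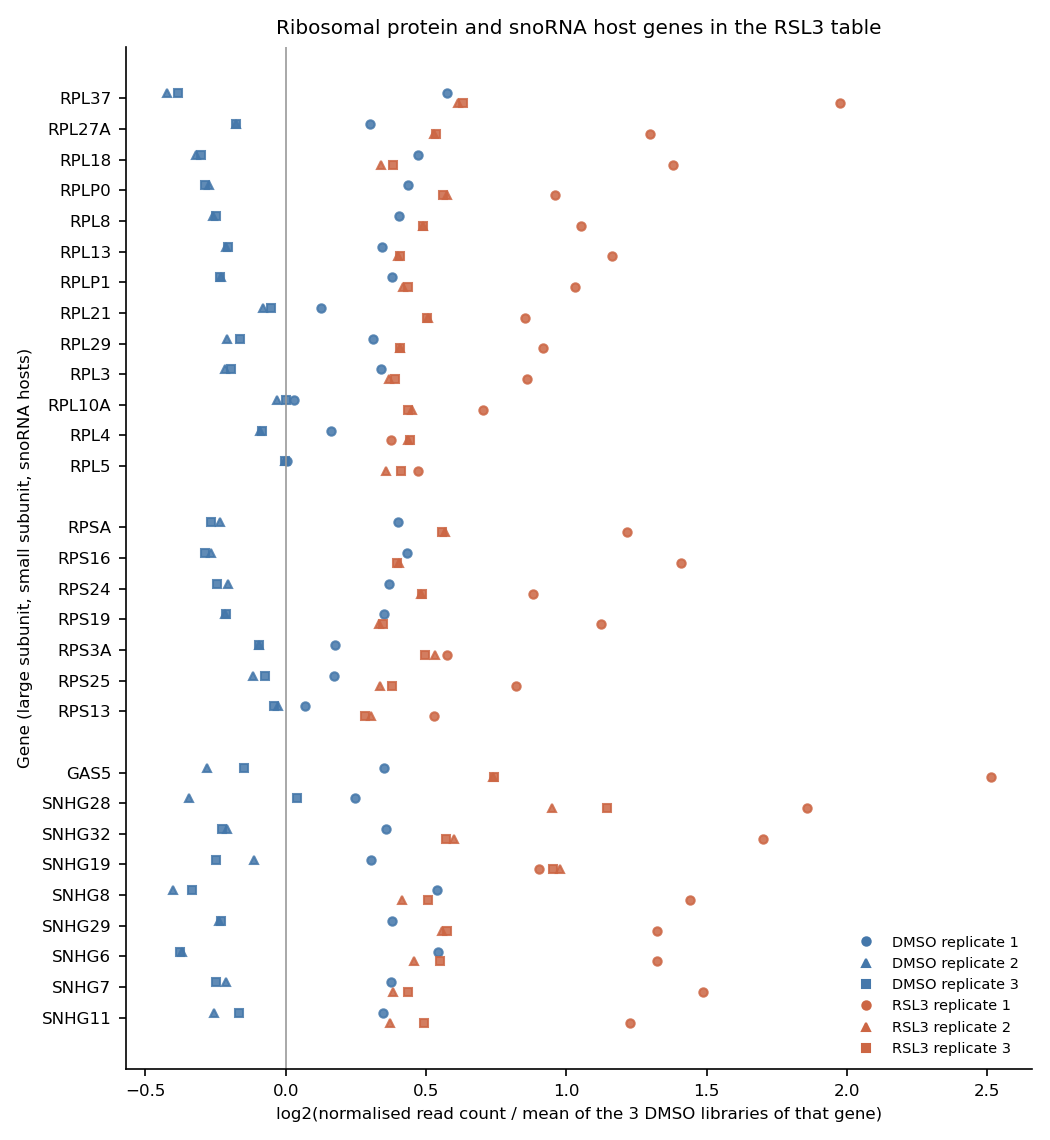
Normalised read count of 29 of the 31 members in each of the 6 libraries, as log2 of its ratio to the mean of the 3 DMSO libraries of that gene (horizontal axis); rows are genes in 3 families, blue is DMSO, orange is RSL3 and the marker shape is the replicate number. Replicate 1 lies to the right in most rows of both colours, and the orange points lie right of all blue points in 24 of these 29 rows; under equal listed totals RPL4, RPL5 and RPS13 are lower in RSL3.

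Among large-subunit genes, RPL37 had the largest ratio. RPL37 had normalised read counts of 20536, 10294 and 10560 in DMSO replicates 1, 2 and 3 and of 54270, 21096 and 21361 in RSL3 replicates 1, 2 and 3. Every RSL3 library was above every DMSO library, but RSL3 replicate 2 exceeded DMSO replicate 1 only slightly, and replicate 1 was the highest of both groups. RPL37 rose 2.34-fold (log2 1.15, SE 0.44, limma adjusted p = 0.0455), and 1.54-fold when RSL3 replicate 1 was left out. RPL27A had counts of 14454, 10364 and 10379 in DMSO and 28859, 16930 and 17002 in RSL3. The groups were apart with replicate 1 again on top, and RPL27A rose 1.78-fold (log2 0.81, SE 0.28, limma adjusted p = 0.0404).

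The acidic stalk of the large subunit recruits elongation factors to the ribosome, and its base protein RPLP0 rose 1.64-fold. RPLP0 counts were 79110, 48417 and 47970 in DMSO and 113733, 87228 and 86331 in RSL3 (log2 0.74, SE 0.29, limma adjusted p = 0.0475). The DMSO library nearest to the RSL3 group was replicate 1, which stayed below all 3 treated libraries. Its partner RPLP1 had counts of 42835, 28088 and 28004 in DMSO and 67398, 44032 and 44552 in RSL3, a 1.58-fold ratio that did not pass (limma adjusted p = 0.0566). RPLP2 was not in the table.

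RPL21, RPL10A and RPL5 were the large-subunit genes with the closest DMSO replicates. RPL21 rose 1.55-fold, from 4883, 4228 and 4312 in DMSO to 8085, 6354 and 6343 in RSL3 (log2 0.62, SE 0.18, limma adjusted p = 0.0332). RPL10A, the protein of the mobile stalk beside the exit site, rose 1.45-fold, from 9290, 8895 and 9106 to 14815, 12428 and 12305 (log2 0.53, SE 0.18, limma adjusted p = 0.0393). In both genes the groups were well apart, and the DMSO libraries spanned a narrow range. RPL5, which with RPL11 can bind and inhibit MDM2, had 5652, 5623 and 5614 in DMSO and 7799, 7211 and 7477 in RSL3. Relative to their mean, its 3 DMSO libraries differed by less than those of any other member and its groups did not overlap. RPL5 rose 1.33-fold (log2 0.41, SE 0.16, limma adjusted p = 0.0463), but its log2 difference was -0.06 under scaling to equal listed totals.

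The other 8 large-subunit genes, among them RPL3, RPL4, RPL8, RPL13, RPL18, RPL29 and RPLP1, had adjusted p-values of 0.0514 to 0.0753 in limma and passed with the block. RPL3 and RPL8 lie close to the catalytic centre, and RPL4 lines the exit tunnel. RPL8 had 109404, 68995 and 69550 in DMSO and 171506, 116009 and 116054 in RSL3, a ratio of 1.63. RPL4 departed from the family pattern, with 35913, 30100 and 30316 in DMSO and 41646, 43392 and 43619 in RSL3: here RSL3 replicate 1 was the lowest treated library. The ratio for RPL4 was 1.34, and its log2 difference was -0.05 under equal listed totals. For RPL18 the groups overlapped, since DMSO replicate 1 at 17879 was above RSL3 replicates 2 and 3 at 16318 and 16805.

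Small-subunit genes showed the same layout of libraries. RPSA, which is also known as the precursor of a laminin receptor, had 40434, 26019 and 25466 in DMSO and 71245, 45440 and 45101 in RSL3. RPSA rose 1.76-fold (log2 0.82, SE 0.30, limma adjusted p = 0.0425), and the fold was nearly the same in each pair, at 1.76, 1.75 and 1.77.

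RPS24 and RPS19 are both mutated in Diamond-Blackfan anaemia. RPS24 rose 1.55-fold, from 8404, 5648 and 5492 in DMSO to 11996, 9100 and 9128 in RSL3 (log2 0.64, SE 0.23, limma adjusted p = 0.0426), with no overlap. RPS19 had 37575, 25365 and 25433 in DMSO and 64242, 37059 and 37469 in RSL3. DMSO replicate 1 of RPS19 lay just above RSL3 replicates 2 and 3, and its ratio of 1.57 did not pass (limma adjusted p = 0.0750). RPS3A rose 1.45-fold (limma adjusted p = 0.0363) and RPS25 rose 1.44-fold (limma adjusted p = 0.0495). RPS16 and RPS13, at ratios of 1.76 and 1.30, did not pass in limma (adjusted p = 0.0632 and 0.0581) and passed with the block. The RPS13 log2 difference was -0.10 under equal listed totals.

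Among the hosts, GAS5 had the largest ratio of all 31 members. GAS5 carries 11 annotated snoRNAs in its introns and its RNA is known to accumulate when cells stop growing. Its counts were 1794, 1160 and 1271 in DMSO (1408 ± 339, SD, n = 3) and 8038, 2352 and 2355 in RSL3 (4248 ± 3282, SD, n = 3). The groups did not overlap, but RSL3 replicate 1 was far above the other treated libraries, at 3.42 times their mean. GAS5 rose 3.02-fold (log2 1.36, SE 0.47, limma adjusted p = 0.0407), and 1.67-fold without RSL3 replicate 1. By pair, the ratio was 4.48, 2.03 and 1.85.

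SNHG19, the host of SNORD60, was the member with the smallest limma adjusted p and with the closest treated libraries among the hosts. SNHG19 counts were 508, 380 and 346 in DMSO (412 ± 85.1, SD, n = 3) and 769, 810 and 796 in RSL3 (792 ± 21.1, SD, n = 3). Unlike in most members, RSL3 replicate 1 was the lowest treated library. SNHG19 rose 1.92-fold (log2 0.96, SE 0.20, limma adjusted p = 0.0178), and its ratio was 1.95 without RSL3 replicate 1.

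SNHG32, which holds SNORD48 and SNORD52, had 5071, 3427 and 3389 in DMSO and 12878, 6011 and 5882 in RSL3. The groups were apart, with replicate 1 highest in both. SNHG32 rose 2.08-fold (log2 0.98, SE 0.34, limma adjusted p = 0.0405). SNHG29, with 3 annotated snoRNAs, rose 1.82-fold (limma adjusted p = 0.0383), SNHG6 rose 1.78-fold with overlapping groups (limma adjusted p = 0.0472), and SNHG11 rose 1.68-fold (limma adjusted p = 0.0484). SNHG7 and SNHG8 had ratios of 1.82 each and did not pass (limma adjusted p = 0.0524 and 0.0536). All 9 hosts were at or above a log2 difference of 0.72, and all 9 stayed above 0 under equal listed totals.

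SNHG28 was measured with few reads. Its reads numbered 22, 21 and 24 in the DMSO libraries and 51, 42 and 48 in the RSL3 libraries, which are normalised counts of 24.2, 16.0 and 20.9 and of 73.8, 39.4 and 45.0. The groups were apart and SNHG28 rose 2.59-fold (log2 1.30, SE 0.35, limma adjusted p = 0.0295). The gene overlaps SLAMF8 on the opposite strand, which is also in the table and rose 2.91-fold from 9, 17 and 12 to 36, 22 and 26 reads. SNHG29 likewise overlaps LRRC75A on the opposite strand, which had a ratio of 1.83 (limma adjusted p = 0.0556). Whether the libraries kept strand is not given in the sources used here, so reads of these overlapping genes cannot be told apart. SNHG28 also overlaps VSIG8 on its own strand, and SNHG7 likewise overlaps a gene on its own strand. Further members, among them GAS5, RPL5, RPL27A and SNHG6, overlap opposite-strand genes that have no entry in this table. For ribosomal protein genes with many processed pseudogenes, such as RPL21 with 137 named copies, RPSA with 74 and RPS3A with 54, the authors' counting could have split reads among copies.

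Replicate 1 was shifted in members in both groups. Relative to the mean of replicates 2 and 3, it was higher in 31 of 31 members in DMSO, with a median ratio of 1.48, and in 29 of 31 in RSL3, with a median ratio of 1.64. Over all tested genes the median ratios were 1.12 and 1.17. The 2 members below 1 in RSL3 were RPL4 and SNHG19, both at 0.957. Across 1320 genes with a mean of at least 50, this offset went with GC content of the transcript (Spearman rho 0.50 in DMSO and 0.59 in RSL3) more than with transcript length (rho -0.17 and -0.14); these genes share the same libraries, and the values are descriptions. Members had a median GC content of 54.1% (29 of 31 with a value) and a median length of 712 bases, against 55.5% and 1065.5 bases over tested genes. Without replicate 1 of both groups, limma called all 31 members higher. Of the 1732 tested genes it then called 1713 in either direction, 915 of them higher.

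**Figure D3:**
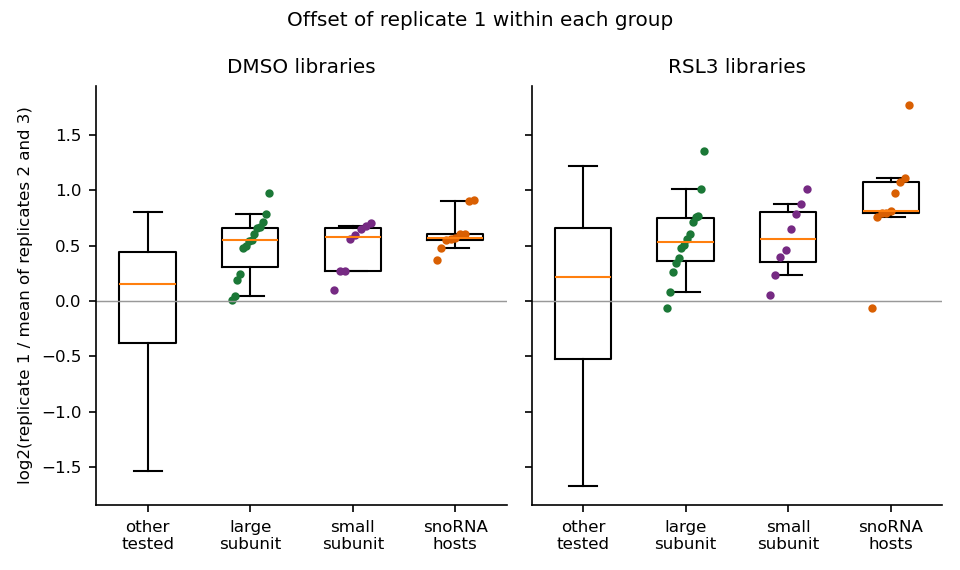
Replicate 1 relative to the mean of replicates 2 and 3 in the same group, on a log2 scale (vertical axis), in DMSO (left) and RSL3 (right), for other tested genes and for the 3 families of members. Boxes span the quartiles with the median as a line, whiskers reach the 5th and 95th percentiles, and dots are members: all lie above 0 in DMSO and all but RPL4 and SNHG19 lie above 0 in RSL3.

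**Figure D4:**
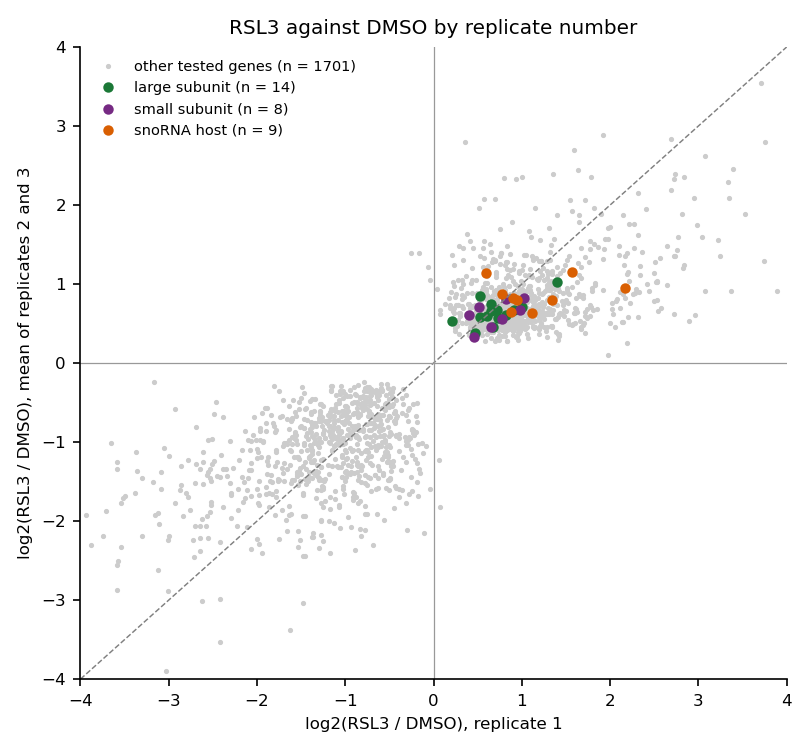
Log2 ratio of RSL3 to DMSO in the replicate 1 pair (horizontal axis) against that of the means of replicates 2 and 3 (vertical axis) for the 1732 tested genes under the authors' scaling, with 21 genes outside the axes. All 31 members lie in the upper right quadrant, among many other tested genes; RPL4, RPL5 and RPS13 are slightly lower in RSL3 under equal listed totals. The dashed line marks equal change.

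The size of the difference depended on the scaling. Scaling to equal listed totals, TMM and relative log expression moved the median of all tested genes from 0.51 to 0.04, 0.18 and 0.20 on the log2 scale, and the members' median from 0.72 to 0.25, 0.39 and 0.41. A scaling moves all genes by nearly the same amount, so the gap of 0.21 between both medians and the 28 of 31 members above the median of all tested genes do not bear on it. The median of all tested genes includes those that were lower, so neither value sets members apart from other higher genes. The share of calls that were higher was 52.6% under the authors' scaling and 24.2%, 27.3% and 28.8% under the others, which take listed genes as unchanged on balance, and 5, 4 and 5 members then passed, all higher, beside 154, 239 and 259 of the 1732 tested genes called higher. As a share of all listed reads, members took 23.9%, 20.6% and 20.7% in the DMSO libraries and 25.8%, 25.3% and 25.2% in the RSL3 libraries. Such a share divides by the listed total, as scaling to equal listed totals does, and is not independent of that scaling. The treated libraries were all above the controls, and DMSO replicate 1 lay closest to them. For the hosts alone the shares were 0.739%, 0.616% and 0.617% in DMSO and 1.11%, 0.807% and 0.816% in RSL3, again without overlap.

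In the ATOH8 table, 5 of the 6 members rose in oeATOH8 libraries and 1 fell. All 6 passed edgeR's quasi-likelihood test, but so did 100% of the 1424 listed genes (41.4% called higher and 58.6% lower), so passing says nothing particular of the members. The risers, by 2.02-fold to 2.34-fold, were RPS2 and RPS28 of the small subunit, the paralogues RPL22L1 and RPL39L of the large subunit, and SNHG32. Most listed genes were lower. The direction of the risers held under each scaling that was tried, but the list left little room for another outcome. Listed genes lay at least 1.00 from 0 after centring, and the scalings moved the median by at most 0.91. The members' median log2 difference was 1.14, against -1.10 over all listed genes. With no gene listed near 0 and 58.6% of genes lower, this contrast only restates that 5 of the 6 members rose. Both medians shift together by -0.46, 0.31 and 0.91 under equal listed totals, TMM and relative log expression.

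RPS2, a protein near the entry of the messenger RNA channel, had read counts of 23653, 22379 and 22406 (oeCTRL) and of 54005, 50711 and 50733 (oeATOH8). Within each group the replicates were within a narrow range, and the groups were far apart. RPS2 rose 2.22-fold (log2 1.15, SE 0.03, edgeR adjusted p = 1.24e-10). RPS28 had counts of 2923, 2378 and 2406 without and 5603, 5179 and 5087 with ATOH8 overexpression, and rose 2.02-fold (log2 1.01, SE 0.08, edgeR adjusted p = 1.86e-07). It was the member closest to the lower fold limit of the list, which lay at a log2 difference of 1.00 after centring. RPS2 has 55 named pseudogenes, so part of its reads could belong to copies.

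Each of the next genes is a paralogue of a core ribosomal protein that is not itself in the table. RPL22L1, the paralogue of RPL22, had counts of 1209, 1009 and 1203 in the control and 2374, 2576 and 2921 in the oeATOH8 libraries. RPL39L, the paralogue of RPL39 known from testis and tumours, had 439, 412 and 327 reads and 975, 909 and 930 reads. In both genes the lowest oeATOH8 library held nearly double the reads of the highest oeCTRL library or more. RPL22L1 rose 2.25-fold (log2 1.17, SE 0.09, edgeR adjusted p = 3.42e-07) and RPL39L rose 2.34-fold (log2 1.23, SE 0.11, edgeR adjusted p = 7.23e-07).

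SNHG32 counts were 4386, 4089 and 4016 in control libraries and 8729, 9046 and 10202 in oeATOH8 libraries, with no overlap. It rose 2.19-fold (log2 1.13, SE 0.06, edgeR adjusted p = 1.87e-08). In the RSL3 table its ratio was 2.08; the 2 tables share no library and were normalised separately. The RSL3 table also listed ATOH8 itself, at 26.4, 35.1 and 40.1 in DMSO and 358, 429 and 470 in RSL3, a 12.4-fold rise (limma adjusted p = 0.00147).

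The readthrough locus RPS10-NUDT3 was the only member that fell. It had counts of 219, 147 and 184 in the controls and of 95, 42 and 26 in the oeATOH8 libraries. The groups did not overlap, although the oeATOH8 replicates differed from each other by more than those of the other members. RPS10-NUDT3 was 3.45-fold lower (log2 -1.78, SE 0.39, edgeR adjusted p = 0.000985), and its log2 difference was -2.43 without oeATOH8 replicate 1. It did not pass under relative log expression (log2 -0.88, adjusted p = 0.0587) or when all annotated genes entered the adjustment (adjusted p = 0.0520). This locus shares exons and strand with RPS10 and NUDT3, neither of which is in the table, so its reads could not be assigned to the readthrough RNA alone.

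**Figure D5:**
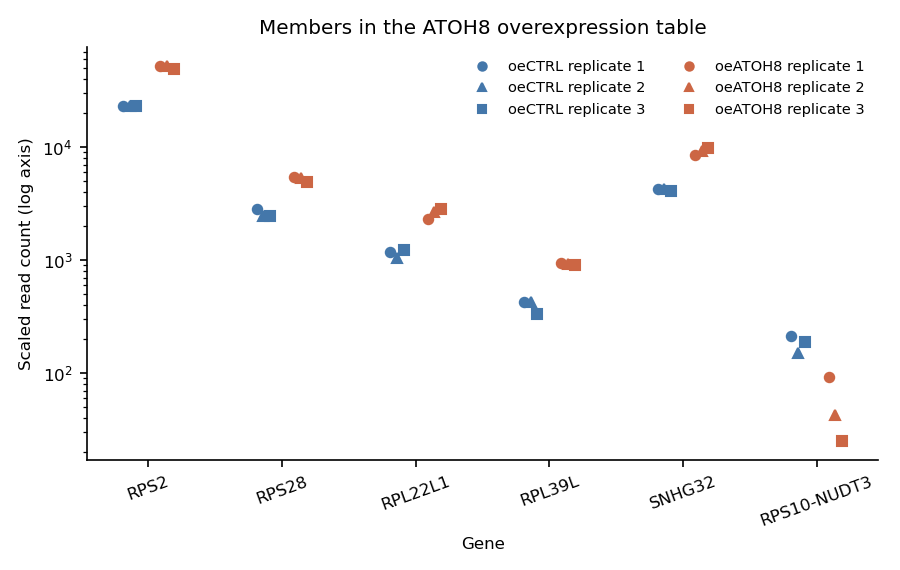
Scaled read counts (logarithmic vertical axis) of the 6 members in the ATOH8 table in each oeCTRL (blue) and oeATOH8 (orange) library, with the replicate number as the marker shape. The orange points lie above the blue points for 5 genes and below them for RPS10-NUDT3.

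Members took 2.04%, 2.02% and 2.00% of listed reads in oeCTRL and 3.22%, 3.29% and 3.18% in oeATOH8. Markers of other cells moved in these libraries. Of 14 such markers the table listed COL1A2, HBA1, HBA2 and HBB, at a summed 7 to 13 reads in oeCTRL, with HBB at 0 in all 3, and 3213 to 56754 in oeATOH8. Of 7 epithelial markers KRT8 and CDH1 were listed, at a summed 16611 to 17667 and 6149 to 6531 reads. oeATOH8 replicate 1 held the most globin reads, and its scaled values were 0.843 to 1.06 times the mean of replicates 2 and 3 for the 5 members that rose and 2.70 times that mean for RPS10-NUDT3. The part of these markers in the results was not tested.

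Neighbouring parts of the translation machinery were thinly listed. For the counts below, limma called 82% of the 1732 tested RSL3 genes, 43.1% as higher, and 1720 passed with the block. All 1424 genes listed for ATOH8 passed, 41.4% as higher. Passing alone therefore says nothing particular of these lists. Of 58 genes for ribosome assembly, the RSL3 table listed 5, all with higher values, of which RRP12 (1.84-fold, limma adjusted p = 0.0425) and NOL6 (1.45-fold, limma adjusted p = 0.0459) rose; all 5 passed with the block. The ATOH8 table listed 7 of the 58, and all 7 rose, including the growth regulator MYC (2.70-fold, edgeR adjusted p = 1.73e-09), BOP1 (2.71-fold), RRP9 (2.46-fold) and RRP12 (2.18-fold). BOP1, RRP9, RRP12 and NOL6 are factors that process ribosomal RNA precursors, and each of these 4 was in both tables with higher values.

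Of 39 ribosomal fusion genes, translation factors and related genes, the RSL3 table listed EIF4EBP1 and EEF1A2. Whether these 2 genes begin with a pyrimidine tract was not tested. EIF4EBP1, a translation repressor that mTOR inactivates, rose 2.07-fold (limma adjusted p = 0.0371), and EEF1A2 had a ratio of 1.43 (limma adjusted p = 0.0658, and 0.00962 with the block). EIF4EBP1 also rose 3.08-fold in the ATOH8 table, the only one of this list there. A list of 39 symbols for further snoRNA hosts also held SNHG14, which falls under the rule for members, and SCARNA2, itself a small RNA. Of the 39, the RSL3 table listed 4 hosts, all higher, and all 4 passed with the block. Without it 3 rose: ZFAS1 by 1.98-fold, EPB41L4A-AS1 by 2.08-fold and CWF19L1 by 1.40-fold (limma adjusted p = 0.0425, 0.0464 and 0.0407). Among these hosts 2 were in the ATOH8 table, and they moved apart: the chaperone HSPA8 was 4.73-fold lower and PPAN was 2.09-fold higher (edgeR adjusted p = 1.20e-11 and 0.000760).

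Mitochondrial ribosomal proteins, which build the separate ribosome of that organelle, were listed in both tables. The RSL3 table held 12 of 77, of which 9 rose, 1 fell and 2 did not pass, where 82% of all tested genes were called in either direction. All 12 passed with the block, as did 1720 of the 1732 tested genes. MRPS16 rose 1.67-fold and MRPL24 rose 2.16-fold, while MRPL39 was 1.52-fold lower (limma adjusted p = 0.0265, 0.0391 and 0.0491). All 5 in the ATOH8 table rose, among them MRPL12 by 2.75-fold and MRPL24 by 2.72-fold (edgeR adjusted p = 2.80e-09 and 1.10e-07).

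Of 14 nonsense-mediated decay factors, which degrade many host RNAs, the RSL3 table listed SMG5 and SMG1, and neither passed without the block (limma adjusted p = 0.0539 and 0.0706). With the block both passed, SMG5 as higher and SMG1 as lower (limma adjusted p = 0.00397 and 0.00402). SMG9 rose 2.15-fold in the ATOH8 table.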

How the data were processed

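Per the submitters' processing notes, fastp, HISAT2, StringTie and DESeq2 were used with the build hg38 (GRCh38); their roles and versions are not given in the sources used here. The deposited RSL3 table holds a signal per gene and library, in which 100% of values were whole multiples of 1 step per library within a tolerance of 0.001, so whole reads were recovered. For ATOH8 the authors deposited raw counts of reads per gene; the columns headed NC and OE were taken to be oeCTRL and oeATOH8. RSL3 entries were named by position and strand against RefSeq (1045 with the same span, 696 by an overlap of at least 0.5 of both spans, 20 with the same span and a strand not in the tables, 18 from GENCODE, 31 unnamed). Among the 1152 Ensembl identifiers given for ATOH8, 1146 had a symbol, and 272 further entries were loci assembled by the authors.

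A low-count filter (filterByExpr of edgeR, with a count of at least 10 and a total of at least 15) removed 78 of 1810 RSL3 genes. The rest were tested with limma 3.58.1, with a trended variance, on log2(value + 1); differences on this scale understate the change of low genes. ATOH8 counts were tested with edgeR 4.0.16 (quasi-likelihood), with libraries scaled within groups by the median ratio and groups scaled so that the empty gap in log2 ratios, from -0.97 to 1.03, was centred on 0. Tests were two-sided, over all listed genes, with Benjamini-Hochberg adjustment at 0.05, under R 4.3.3. DESeq2 1.42.0 and edgeR on the recovered reads were alternatives, and called 1727 and 1561 of the RSL3 genes. For edgeR the standard error was taken as the log2 difference over the root of F. Fold values are ratios of group means. Each test was checked on simulated data in which most genes were unchanged and replicate 1 had no shift. The lists of called genes differ from that setting, so the check does not cover them. The rule was to name every member and up to 4 genes per related list; some of these are not reported here. The members and lists were chosen with earlier results of these data known.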

Additional observations from a re-analysis of the deposited data

How the results depend on the processing

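Of the RSL3 results, the number of members that passed was 18 and kept within 1.5 times of that with edgeR (19), a pseudocount of 5 (18) and no filter (18). It was 31 with DESeq2, with the replicate block, with replicate 1 as a term and without replicate 1 of both groups; 5 under equal listed totals, 4 under TMM and 5 under relative log expression; and 0 to 30 when single libraries were left out. Among alternatives chosen after the data were seen, it was 0 with all annotated genes (59792) counted as tests, 0 with that and the block, 0 with replicates 2 and 3 counted as 1 sample, and 30 with that and the block. Of all listed genes, 1421 passed, against 636, 877 and 898 under equal listed totals, TMM and relative log expression, 1713 without replicate 1 of both groups, 6 to 1445 with single libraries left out, 0 with all annotated genes counted, 2 with that and the block, and 3 with replicates 2 and 3 as 1 sample; the replicate block gave 1720. A group left with 2 libraries was fitted with the pooled spread.

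Of the members' values under all alternatives run, 3 changed sign, each under equal listed totals: log2 differences of -0.060529 for RPL5, -0.0508359 for RPL4 and -0.100916 for RPS13. In the ATOH8 table all 6 members passed under each alternative except relative log expression and all annotated entries (75204) counted as tests, with 5 each; 1424 listed genes passed, with 1007 under relative log expression, where 58.5% of calls were higher in place of 41.4%. Same-numbered ATOH8 libraries did not deviate together beyond r = 0.0879, and the replicate block there still called 6 members and 1424 genes. Depth limits SNHG28, with 21 to 51 reads per library, and RPS10-NUDT3, with 26 to 219.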

Other observations

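The RSL3 table also lists snoRNAs with entries of their own, apart from their hosts. SNORD43, which lies in an intron of RPL3, had read counts of 6, 5 and 7 in the DMSO libraries and of 57, 9 and 9 in RSL3 replicates 1, 2 and 3. SNORA64, which lies in RPS2, had 4, 6 and 4 reads and 20, 9 and 9 reads. In both, the treated libraries were above the controls and RSL3 replicate 1 was far above the other treated libraries. SNORD63, in an intron of the chaperone gene HSPA9, had counts of 2, 3 and 2 in the DMSO and 13, 4 and 8 in the RSL3 libraries, and SNORD3A had 21, 13 and 17 reads and 74, 33 and 17 reads, with RSL3 replicate 3 level with DMSO replicate 3. These are counts of few reads, given with no test.

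Relatives of ribosomal protein genes outside the rule, most of them named pseudogenes, were nearly absent from both tables. An absent gene has no level here, so a relative without expression cannot be told from one without change. Of 2004 named pseudogenes and RPS6K kinases, the RSL3 table listed 1, the pseudogene RPL31P11, which was 1.74-fold lower (limma adjusted p = 0.0477), and the ATOH8 table listed 1, the kinase RPS6KA6, which was 2.24-fold lower (edgeR adjusted p = 1.03e-06). Both moved against the direction of most members in the same table.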
